A study of Mus musculus with 4 samples.

Results

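Semaphorins and their receptors, the plexins and neuropilins, were followed in ASZ001 cells, a mouse basal cell carcinoma line, with and without a c-FOS vector. The members were all rows of the count table whose gene symbol begins with Sema3 to Sema7 or with Plxn followed by a, b, c or d, or is Nrp1 or Nrp2. This gave 32 of 24907 genes, namely 20 semaphorins (the ligands), 9 plexins and 2 neuropilins (the receptors), and Plxna4os1, an antisense transcript that was at 0 in all 4 libraries and is left out of the counts below. The c-FOS group (2 libraries) came from ASZ001 cells with a doxycycline-inducible vector encoding the transcription factor c-FOS. The control group (2 libraries) came from the same line with the inducible vector empty, and both groups received doxycycline. By its title, the series concerns how basal cell carcinoma passes into squamous cell carcinoma. No c-FOS vector cells without doxycycline were in the design, so induction of c-FOS and other differences between the vector lines cannot be told apart. The sources used here do not give whether each line was a clone or a pool, nor how long doxycycline was applied.

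Semaphorins are guidance ligands that share a large extracellular sema domain. Class 3 members are secreted, and members of classes 4 to 7 are held at the cell surface by a membrane span or, for Sema7a, a lipid anchor. Plexins are their signalling receptors, with an intracellular part that acts on small GTPases and through them on the actin cytoskeleton and on integrin adhesion. Most class 3 semaphorins need a neuropilin as the binding partner of a plexin, and neuropilins also bind VEGF. In skin these genes are known from the patterning of nerve endings and vessels and from keratinocyte migration in wounds.

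Fos, the vector's gene, was at 296.7 and 313.3 CPM (counts scaled to a common library size) in the c-FOS libraries and at 0.403 and 0.351 CPM in the control libraries. The libraries held between 28405433 and 32465409 counts. In the edgeR quasi-likelihood test over 12791 genes, 67.1% passed an adjusted p of 0.05, 33.8% as higher and 33.3% as lower with c-FOS, so most genes differed and the share of members called has to be read against that background. The groups did not overlap for 83.6% of the tested genes. Each group has 2 replicates, and separate cultures are not mentioned in the labels, so p-values measure the spread between these libraries, which may be technical. Of 8 keratinocyte markers, all were tested, 6 were lower with c-FOS and 2 did not pass. Their summed level was 13278 to 13812 CPM in the c-FOS libraries and 26452 to 26558 CPM in the control libraries. Markers of other cell types that express semaphorins moved too. The summed level of 11 neural and glial markers was 351.3 to 351.4 CPM with c-FOS and 137.9 to 148.1 CPM in control, most of it Tubb3 and Map2. Of 5 tested, 3 rose, and Snap25 was at 0 in all 4 libraries. The 10 fibroblast markers summed to 134.6 to 136.5 CPM with c-FOS and 14.7 to 16.1 CPM in control. S100a4 alone, which is not limited to fibroblasts, had 116.4 and 117.0 CPM of this with c-FOS and 7.41 and 5.75 CPM in control. Of 6 tested, 4 rose and 1 fell, and Thy1 was at 0 in all. The 10 endothelial markers summed to 214.2 to 218.9 CPM with c-FOS and 117.1 to 117.4 CPM in control, most of it Flt1 and Pecam1. Of 4 tested, 3 rose and 1 fell, and Kdr, Tie1, Emcn and Cldn5 were at 0 in all. The 11 leukocyte markers with a row summed to 41.5 to 44.99 CPM with c-FOS and 16.98 to 18.9 CPM in control, most of it Csf1r, Cd68 and Cd14. All 3 tested rose, and Cd3e and Cd79a were at 0 in all. Pdgfrb, Gfap and Csf1r, counted here as rising, passed the minimum count for testing only through the c-FOS libraries, where they were high. Their control counts were 0 and 0, 0 and 1, and 11.5 and 7, so these calls are no more than descriptions. The part of these cell types in the results below was not tested.

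With c-FOS, Sema5a, Sema3a, Sema3e and Sema4f rose about 4-fold or more, Sema4a fell about 4-fold, and Sema3f, a major ligand of the control cells, fell to about 0.52 of its control level. Among the receptors, Plxnd1 and Nrp1 rose by 2-fold or more, Nrp2 rose, and Plxna1 fell to about 0.52 of its control level. Of the 20 semaphorins, 14 were expressed highly enough to be tested, of which 7 rose, 3 fell and 4 did not pass. Of the 11 receptors, 9 were tested, of which 5 rose and 4 fell. Plxnb3, counted among the 5, met the minimum count of 10 only through the c-FOS libraries, where it was high, so its call is no more than a description. At a minimum count of 50, Plxnb3 and Sema3b were not tested, 4 receptors rose and 4 fell, and 6 semaphorins rose and 3 fell. With Plxnb3 included, 19 of 23 tested members passed, 82.6% against a background of 67.1%. Taken apart, 71.4% of the tested semaphorins passed, which is near that background, and 100% of the tested receptors, Plxnb3 included. Changes of at least 2-fold that passed were found for 9 of the 23, 7 higher (Plxnb3 among them) and 2 lower, where 15.4% of all tested genes did so, 7.73% higher and 7.71% lower. The groups did not overlap for 21 of the 23, against 83.6% of all tested genes. The median log2 fold change was 0.19 for the tested semaphorins and 0.60 for the tested receptors, against -0.01 for all tested genes, and the median absolute log2 fold change was 0.92 and 0.69 against 0.32 for all tested genes. Both receptor medians include Plxnb3. The receptors did not shift as 1 group, since the median log2 fold change of the 7 tested plexins, Plxnb3 included, was -0.33. Members that passed the filter on low counts are described here, and the 8 that did not are given separately.

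**Figure D1:**
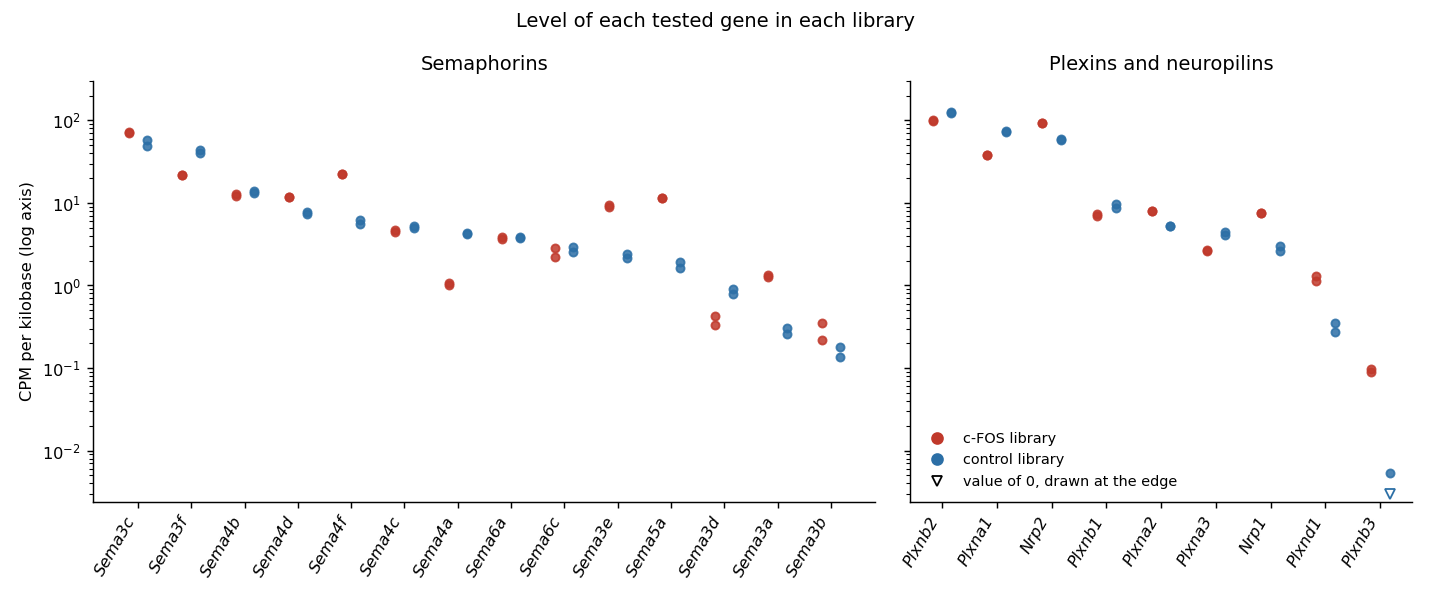
Level of each tested semaphorin (left) and receptor (right) in CPM per kilobase of gene length, on a log axis, with 1 point per library, c-FOS libraries in red left of the control libraries in blue. The groups are far apart for Sema5a, Sema3e, Sema4f, Sema3a, Sema4a, Plxnd1 and Plxnb3, and lie together for Sema6a and Sema6c.

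The secreted class 3 semaphorins moved in both directions. Sema3c, which binds both neuropilins and is known from heart outflow tract development, was the most abundant semaphorin in every library, with 361.7 and 345.8 CPM in the c-FOS libraries and 243.1 and 285.4 CPM in the control libraries. It rose modestly, with a log2 fold change of 0.42 ± 0.06 (SE) and an edgeR adjusted p of 2.05e-05. Per kilobase of gene length its level was 71.7 CPM with c-FOS and 53.5 CPM in control. Sema3f, a repellent that binds Nrp2, had 72.1 and 72.1 CPM with c-FOS and 145.0 and 134.7 CPM in control. Both c-FOS libraries lay below both control libraries, and the log2 fold change was -0.96 ± 0.05 (SE; edgeR adjusted p = 2.56e-10). The level of Sema3c per kilobase was 3.37 and 3.22 times that of Sema3f in the c-FOS libraries, against 1.13 and 1.42 times in the control libraries.

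Sema3e, which binds Plxnd1 directly without a neuropilin, had 65.1 and 60.8 CPM with c-FOS and 14.8 and 16.6 CPM in control. The groups were well apart, with a log2 fold change of 2.0 ± 0.07 (SE; edgeR adjusted p = 8.82e-12). Sema3a, the founding axon repellent, which acts through Nrp1, was rarer, with 9.25 and 8.76 CPM with c-FOS and 2.08 and 1.76 CPM in control, and its log2 fold change was 2.23 ± 0.14 (SE; edgeR adjusted p = 5.34e-09). Sema3d, another secreted guidance ligand, went the other way, with 2.77 and 2.18 CPM with c-FOS and 5.16 and 5.97 CPM in control. The log2 fold change of Sema3d was -1.17 ± 0.16 (SE; edgeR adjusted p = 1.6e-05). Sema3b was close to the filter, with 0.880 and 1.39 CPM with c-FOS and 0.706 and 0.543 CPM in control. It passed (0.89 ± 0.31, SE; edgeR adjusted p = 0.0224), but not in DESeq2 (adjusted p = 0.195), without c-FOS replicate 2 (0.53, adjusted p = 0.333) or without control replicate 2 (0.71, adjusted p = 0.0815), and its adjusted p ranged from 0.00978 to 0.333 over its alternatives.

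Among the 6 membrane-bound class 4 semaphorins, Sema4f and Sema4d rose, Sema4a fell, Sema4b and Sema4c did not pass and Sema4g was too rare to test. Sema4f, a transmembrane member, had 90.2 and 91.0 CPM with c-FOS and 25.4 and 22.3 CPM in control, a log2 fold change of 1.93 ± 0.06 (SE; edgeR adjusted p = 2.39e-12). Per kilobase it ranked 2nd among the semaphorins in both c-FOS libraries and 5th in both control libraries. Sema4a, known from immune cells and from the retina, had 3.27 and 3.41 CPM with c-FOS and 13.5 and 13.9 CPM in control, a log2 fold change of -2.03 ± 0.11 (SE; edgeR adjusted p = 1e-09). Its rank per kilobase was 12th in both c-FOS libraries and 7th in both control libraries. Sema4d, the ligand of Plxnb1 also called CD100, had 53.3 and 53.1 CPM with c-FOS and 34.7 and 33.5 CPM in control, and rose by 0.64 ± 0.05 on the log2 scale (SE; edgeR adjusted p = 9.35e-08). Sema4b and Sema4c missed the threshold, at log2 fold changes of -0.10 ± 0.05 and -0.16 ± 0.08 (SE; edgeR adjusted p = 0.105 and 0.086). For these genes the choice of scaling decided the call: when library totals replaced the TMM factors, a choice that moved the median of all tested genes to -0.14, they passed as lower at -0.24 and -0.30 (edgeR adjusted p = 0.00113 and 0.00387, against up to 0.542 and 0.389 over the alternatives). They also passed with upper-quartile factors (-0.16 and -0.22) and without control replicate 2 (-0.14 and -0.20).

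Windows from 250 bases before to 50 bases after annotated gene starts were available for 26 of the 31 ligand and receptor genes, from RefSeq on GRCm38.p6. Sema3b, Sema3f, Sema6a, Plxna1 and Plxna4 had none. They were searched for TGANTCA, the core of the site bound by AP-1 dimers such as c-FOS with c-JUN, and for TGACGTCA, the CRE core. Both strands were read, and neither motif can lie within the other. A TGANTCA match stood in a window of 3 of the 26 genes (11.5%), against 8.97% of all genes with a window, and a TGACGTCA match in 0 of 26, against 2.03%. These shares are per gene, and a gene can have several windows. The 26 genes had 37 windows, of which 3 held a TGANTCA match, against 7.81% of all windows. The 3 genes with a match were Sema4d, which rose, Sema4c, which did not pass, and Sema6b, which was too rare to test. The other genes that passed as higher and had a window, Sema5a, Sema3e, Sema4f, Sema3a, Sema3c, Nrp1, Nrp2, Plxna2, Plxnb3 and Plxnd1, held neither motif in these windows. The 3 stretches are printed because they are the matches found, read 5′ to 3′ on the strand of the gene (the minus strand for all 3), with the match in capitals. They lie at chr13:51748993-51749060 for Sema4d, at chr1:36558382-36558453 for Sema4c and at chr17:56133853-56133950 for Sema6b. The match begins at -239 bases from the annotated start of that window for Sema4d, at -22 for Sema4c and at -48 for Sema6b. Each of these genes also had a window at another annotated start, and no such window held a match.
Sema4d: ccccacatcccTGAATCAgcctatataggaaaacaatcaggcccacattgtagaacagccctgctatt
Sema4c: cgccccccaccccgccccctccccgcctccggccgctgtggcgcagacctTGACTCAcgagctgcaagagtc
Sema6b: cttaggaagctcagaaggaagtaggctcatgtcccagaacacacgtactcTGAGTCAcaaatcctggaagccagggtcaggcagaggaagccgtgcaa

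Sema5a, a transmembrane ligand with thrombospondin repeats that binds Plxnb3, had 124.3 and 124.1 CPM with c-FOS and 17.8 and 20.6 CPM in control. No other tested semaphorin changed by as much, with a log2 fold change of 2.69 ± 0.06 (SE; edgeR adjusted p = 9.44e-14), a 6.46-fold rise. Its rank per kilobase among the semaphorins was 6th in both c-FOS libraries and 11th in both control libraries. Sema6a and Sema6c, transmembrane ligands of plexin A receptors, did not pass, and their groups overlapped. Sema6a had 26.3 and 24.9 CPM with c-FOS and 26.6 and 26.0 CPM in control (-0.04 ± 0.07, SE; edgeR adjusted p = 0.605). Sema6c had 8.98 and 11.4 CPM with c-FOS and 11.9 and 10.2 CPM in control (-0.11 ± 0.12, SE; edgeR adjusted p = 0.441).

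**Figure D2:**
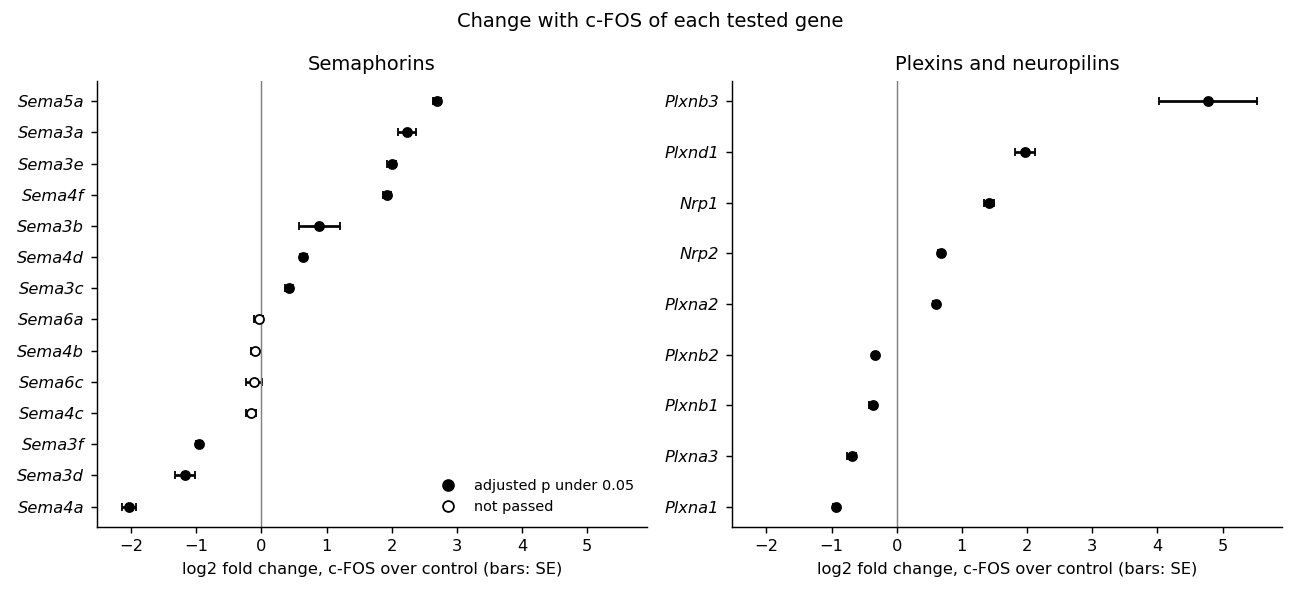
Log2 fold change, c-FOS over control, of each tested semaphorin (left) and each tested plexin and neuropilin (right), with SE from the quasi-likelihood test as bars and filled points for an adjusted p under 0.05. Plxnb3 (4.78) and Sema5a (2.69) stand at the top of their panels, and Sema4a (-2.03) and Plxna1 (-0.94) at the bottom.

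Of the receptors, the neuropilins rose together. Nrp2, which pairs with plexin A receptors to bind Sema3f, had 631.9 and 631.9 CPM in the c-FOS libraries and 400.5 and 390.9 CPM in the control libraries, a log2 fold change of 0.68 ± 0.04 (SE; edgeR adjusted p = 7.88e-10). Nrp1, the partner for Sema3a and a co-receptor for VEGF, had 44.2 and 44.2 CPM with c-FOS and 15.3 and 17.8 CPM in control, a log2 fold change of 1.41 ± 0.07 (SE; edgeR adjusted p = 8.42e-10). Nrp2 stayed the more abundant of the pair, but its level per kilobase was 12.6 and 12.6 times that of Nrp1 in the c-FOS libraries, against 23.0 and 19.3 times in the control libraries.

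The plexins split: 3 of 7 tested passed as higher, Plxnb3 included, and 4 as lower. Of all tested genes, 33.8% passed as higher and 33.3% as lower. The 4 plexins that fell included the 2 most abundant. Plxnb2, the receptor of Sema4c, which is used in epithelia, was the most abundant plexin in every library, with 650.2 and 639.7 CPM with c-FOS and 828 and 793 CPM in control. It fell by 0.33 ± 0.04 on the log2 scale (SE; edgeR adjusted p = 2.54e-06). Plxna1, a signalling partner of the neuropilins, had 344 and 342 CPM with c-FOS and 669 and 645 CPM in control, and fell by 0.94 ± 0.04 on the log2 scale (SE; edgeR adjusted p = 3.4e-11). Plxna3, which works with Nrp2 in the sensing of Sema3f by neurons, fell by 0.69 ± 0.07, with 18.0 and 18.5 CPM with c-FOS and 30.7 and 28.4 CPM in control. Plxnb1, the receptor of Sema4d, fell by 0.36 ± 0.05, with 59.3 and 62.9 CPM with c-FOS and 82.6 and 74.9 CPM in control. The edgeR adjusted p was 1.41e-06 for Plxna3 and 3.56e-05 for Plxnb1. The groups did not overlap for any of these 4 plexins, nor for 83.6% of all tested genes.

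Plxna2, a receptor for Sema6a, rose, with 87.8 and 87.5 CPM with c-FOS and 57.6 and 58.1 CPM in control (0.60 ± 0.04 on the log2 scale, SE; edgeR adjusted p = 2.1e-08). Plxna1 therefore fell and Plxna2 rose within the same receptor subfamily, and the level of Plxna1 per kilobase was 4.796 and 4.783 times that of Plxna2 in the c-FOS libraries, against 14.2 and 13.6 times in the control libraries. Plxnd1, the receptor of Sema3e and best known from vessels, had 8.88 and 7.88 CPM with c-FOS and 2.39 and 1.88 CPM in control, a log2 fold change of 1.97 ± 0.15 (SE; edgeR adjusted p = 4.03e-08). Plxnb3, the receptor of Sema5a, was rare, with 16 and 16.5 counts in the c-FOS libraries and 0 and 1 count in the control libraries. After rounding this was 33 against 1 count, a ratio of 34.3 with an exact 95% counting interval of 5.74 to 1394. Since it passed the filter only through the c-FOS libraries, its edgeR adjusted p of 6.68e-05 is given as a description. Its fitted log2 fold change of 4.78 was 3.97 without control replicate 1 and 7.06 without control replicate 2, where the remaining control library is at 0. Even with c-FOS its level per kilobase, 0.0961 and 0.0890 CPM, was far under that of Plxnb1, at 6.93 and 7.35 CPM.

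**Figure D3:**
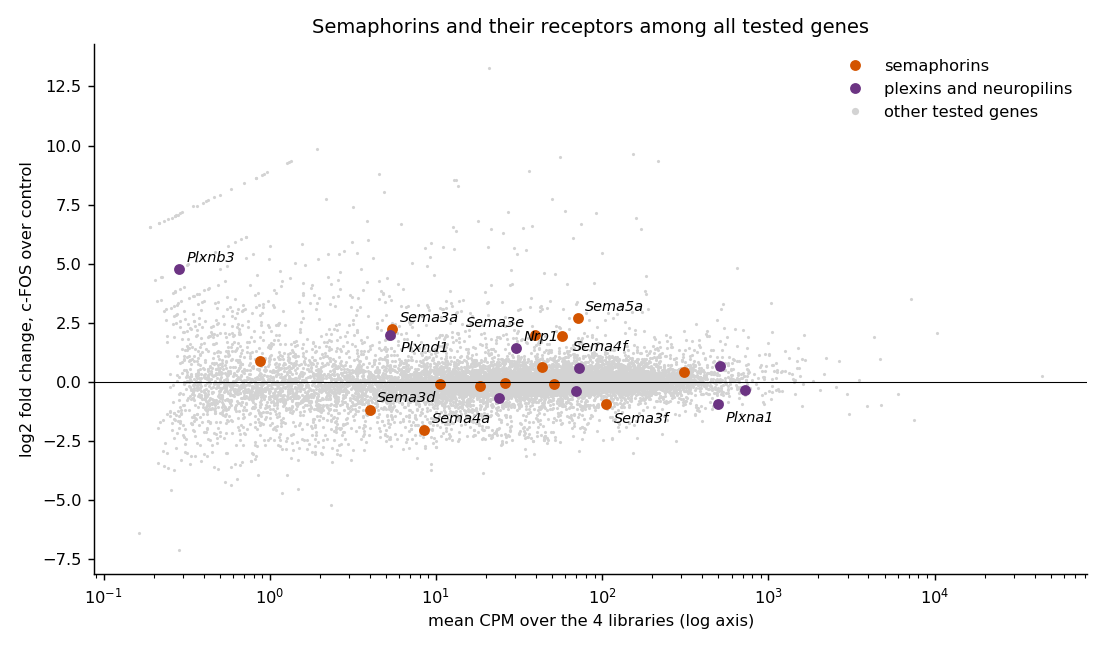
Log2 fold change, c-FOS over control, against the mean CPM over the 4 libraries (log axis) for all 12791 tested genes in grey, with semaphorins in orange and plexins and neuropilins in purple. Sema5a, Sema3e, Sema4f and Sema4a lie outside the dense band around 0 at moderate to high levels, whereas Plxnb3 lies at a low level where many genes scatter widely.

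Of the 31 genes, 8 did not pass the filter on low counts. Sema6b had 6.5 and 4.5 counts with c-FOS and 2 and 1 count in control, or 12 against 3 counts after rounding, a ratio of 4.15 with an exact 95% counting interval of 1.12 to 22.9. Sema3g had 1 and 0 counts with c-FOS and 4.5 and 5.5 counts in control, or 1 against 11 after rounding, a ratio of 0.0944 (interval 0.00219 to 0.650). These intervals cover counting error only. They were computed only where 1 group had at most 3 rounded counts and the other had more, a choice that favours unequal genes. The same holds for the interval of Plxnb3. Genes at 0 in both control libraries, Plxna4 among them, were given no interval. Sema4g had 2 and 4 counts with c-FOS and 8.5 and 0 counts in control. Sema5b, Sema6d, Sema7a, Plxna4 and Plxnc1 had at most 2.5 counts in any library, under the 3 counts (0.0958 to 0.108 CPM) that a count of 0 allows. For Sema7a and its receptor Plxnc1, no difference between the groups was therefore detectable at this depth.

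Summed per kilobase of gene length, the makeup of the ligands differed between the groups more than their total. All semaphorins together had 176.2 and 173.3 CPM per kilobase with c-FOS and 142.4 and 145.8 in control, a log2 ratio of 0.28. The sum of the class 3 members was 106.6 and 102.7 with c-FOS and 96.5 and 102.3 in control, a log2 ratio of 0.07 that was -0.06 with library totals and 0.23 without division by length. Class 4 summed to 51.9 and 52.6 with c-FOS and to 37.4 and 35.3 in control. Sema3f took 12.3% and 12.6% of all semaphorin transcripts in the c-FOS libraries and 30.7% and 27.9% in the control libraries. Sema4f took 12.6% and 12.9% with c-FOS and 4.38% and 3.76% in control, Sema5a 6.54% and 6.64% with c-FOS and 1.16% and 1.31% in control, and Sema3e 5.40% and 5.13% with c-FOS and 1.52% and 1.67% in control. Sema3c kept the top place with 41.6% and 40.4% with c-FOS and 34.6% and 39.7% in control. Each of these shares lay apart between the groups.

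The plexin total was lower and the neuropilin total higher with c-FOS. The plexins summed to 157.9 and 156.3 CPM per kilobase with c-FOS and to 222.2 and 212.9 in control, a log2 ratio of -0.47, and the neuropilins to 101.7 and 101.7 with c-FOS and to 62.3 and 61.3 in control, a log2 ratio of 0.72. Plxnb2 made up 63.8% and 63.4% of plexin transcripts with c-FOS and 57.7% and 57.7% in control, and Plxna1 24.3% and 24.3% with c-FOS and 33.5% and 33.7% in control. Plxna2 took 5.06% and 5.09% with c-FOS and 2.36% and 2.48% in control. The exact permutation test over the libraries, two-sided, gave p = 0.333 for the sums of all semaphorins, all plexins and the neuropilins, the smallest that 2 against 2 libraries can give.

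**Figure D4:**
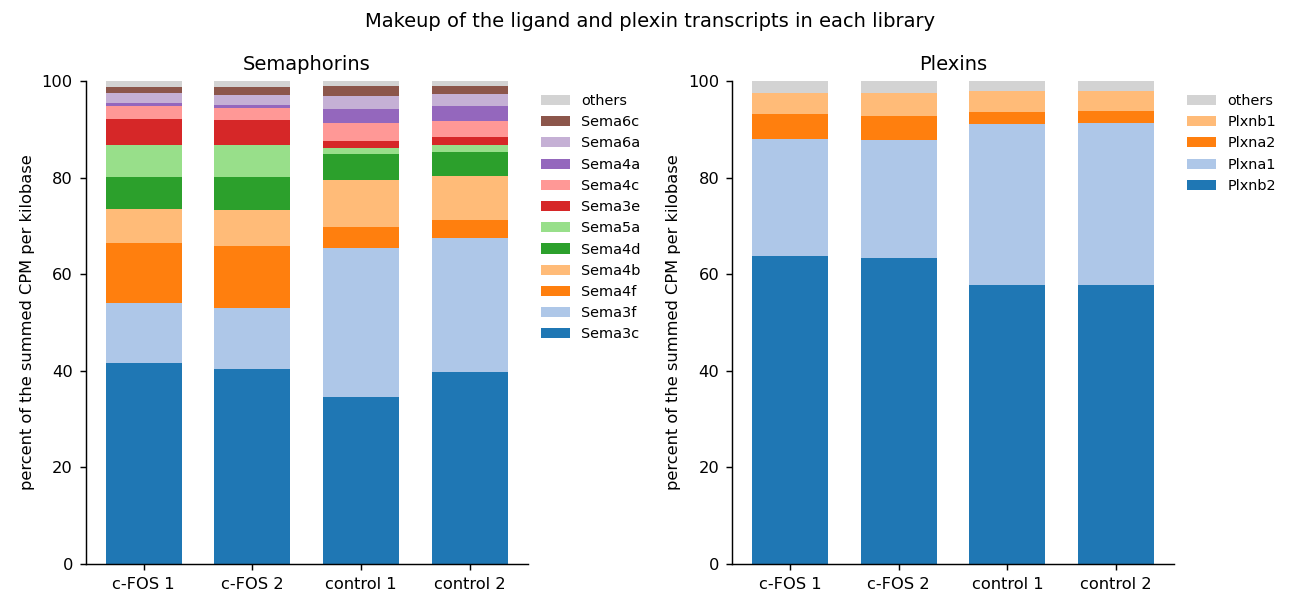
Share of each gene in the summed CPM per kilobase of all semaphorins (left) and of all plexins (right), in percent, 1 bar per library with the c-FOS libraries first. Sema3f takes 12.3% and 12.6% with c-FOS, against 30.7% and 27.9% in control, while Sema4f, Sema5a and Sema3e take larger shares, and Plxna1 takes a smaller and Plxna2 a larger share of the plexins.

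Set side by side by known binding partners, ligand and receptor did not move in 1 pattern. Sema3e and its receptor Plxnd1 rose by similar factors, 4.0-fold and 3.92-fold, and the level of Sema3e per kilobase was 7.36 and 7.75 times that of Plxnd1 with c-FOS and 6.21 and 8.87 times in control, so this ratio overlapped between the groups. Sema5a rose, and Plxnb3 had counts mainly in the c-FOS libraries. Sema3a and Nrp1 both rose, while Plxna1, a signalling partner of Nrp1, fell. Sema3c rose, as did both neuropilins that it binds. Sema3f fell whereas Nrp2 rose. Of the plexin A receptors, with which Nrp2 pairs to bind Sema3f, Plxna1 and Plxna3 fell and Plxna2 rose. Sema4d rose and Plxnb1 fell, so that the level of Sema4d per kilobase was 1.70 and 1.60 times that of Plxnb1 with c-FOS, against 0.794 and 0.846 times in control. Sema4c did not pass while Plxnb2 fell, and Sema6a did not pass while Plxna2 rose.

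Beyond the ligands and receptors, co-receptors and cell-surface partners changed in both directions. Of 15 listed, 10 were tested, of which 3 rose and 6 fell and Gipc1 did not pass, 90% called against 67.1% of all tested genes (33.8% higher, 33.3% lower). The number that fell was 5 in DESeq2 and at a minimum count of 50, and 7 with library totals or upper-quartile factors. The median log2 fold change of the tested genes was -0.45. Itgb1, the integrin subunit through which Sema7a signals, had 2226 and 2180 CPM with c-FOS and 786 and 843 CPM in control (1.44 ± 0.04, SE; edgeR adjusted p = 1.4e-12). L1cam, the neural adhesion molecule that joins Nrp1 in the Sema3a receptor of axons, rose by 1.36 ± 0.20 (SE), with 3.07 and 3.44 CPM with c-FOS and 1.11 and 1.44 CPM in control. Met, a receptor kinase that associates with plexin B receptors, rose by 0.96 ± 0.04 (SE), with 802.9 and 816.8 CPM with c-FOS and 400.1 and 431.4 CPM in control. Chl1, a relative of L1cam, fell by 1.48 ± 0.06 (SE), with 35.2 and 31.7 CPM with c-FOS and 88.4 and 97.6 CPM in control. Itga1, the integrin subunit that pairs with Itgb1 for Sema7a, fell by 1.25 ± 0.16 (SE), with 1.83 and 2.07 CPM with c-FOS and 4.61 and 4.68 CPM in control. Kdr, the VEGF receptor that neuropilins assist, was at 0 in all 4 libraries.

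**Figure D5:**
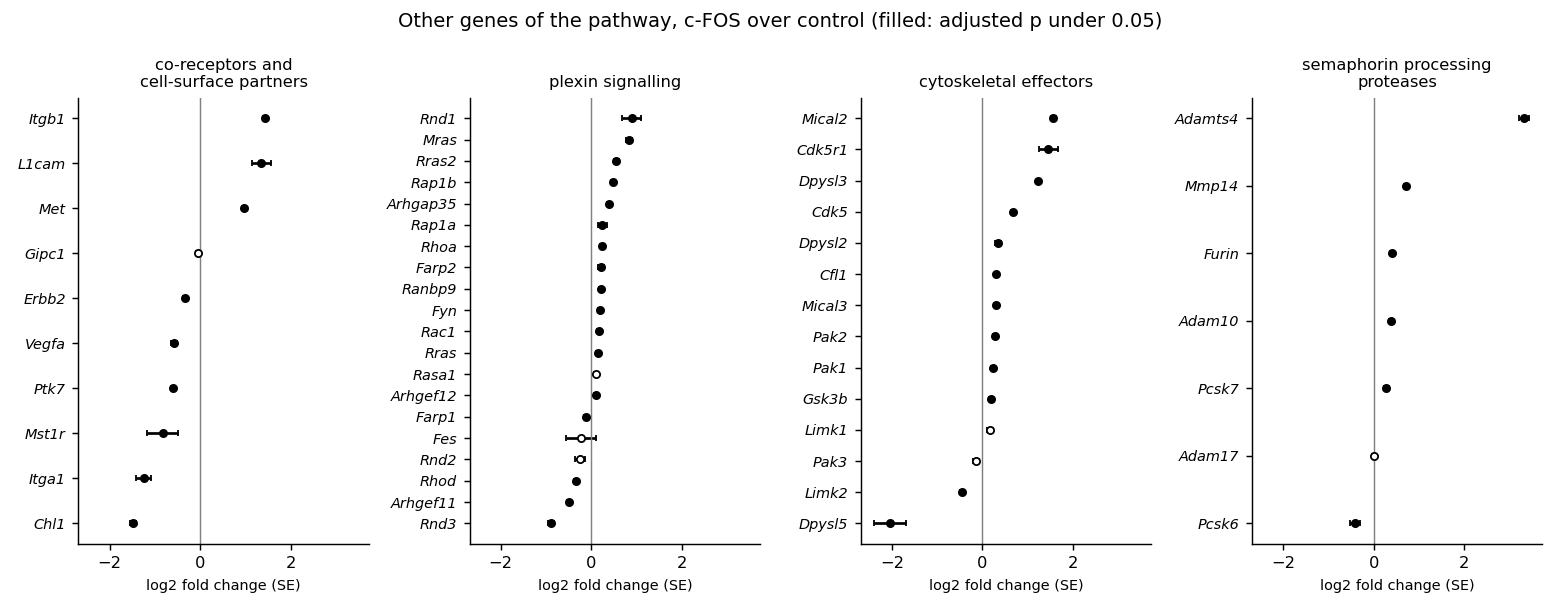
Log2 fold change, c-FOS over control, with SE as bars, of the tested genes of 4 lists: co-receptors and cell-surface partners, plexin signalling, cytoskeletal effectors and semaphorin processing proteases. Filled points passed an adjusted p of 0.05. All points of the plexin signalling list lie within 1 log2 unit of 0, whereas Adamts4 (3.33) lies far to the right.

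Small GTPases and their regulators near the plexins shifted little. All 20 listed were tested, of which 13 rose and 4 fell, while 3 did not pass, 85% called against the same 67.1% (33.8% higher, 33.3% lower). The median log2 fold change was 0.18, and 0 of the 17 that passed changed by 2-fold. With library totals 5 rose and 5 fell, and with upper-quartile factors 9 rose and 5 fell, so the balance of this list rests on the scaling. Rnd1, a small GTPase that binds plexins, rose by 0.90 ± 0.21 (SE), with 2.77 and 3.20 CPM with c-FOS and 1.31 and 1.88 CPM in control, while its relative Rnd3 fell by 0.89 ± 0.06 (SE), with 87.5 and 81.4 CPM with c-FOS and 143.8 and 169.4 CPM in control. Mras, a Ras-family GTPase, rose by 0.83 ± 0.06 (SE), and Rras2 by 0.56 ± 0.05 (SE). Arhgef11, an exchange factor that binds plexin B receptors, fell by 0.50 ± 0.05 (SE).

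Of 17 cytoskeletal effectors, 14 were tested, of which 10 rose, 2 fell (Dpysl5 among them) and 2 did not pass. With Dpysl5 included, 85.7% were called against 67.1% of all tested genes (33.8% higher, 33.3% lower). Their median log2 fold change was 0.29. Mical2, an enzyme of the family that oxidizes actin downstream of plexins, had 101.5 and 98.7 CPM with c-FOS and 33.5 and 33.9 CPM in control (1.57 ± 0.05, SE; edgeR adjusted p = 1.75e-12). Dpysl3, one of the CRMP proteins that carry the Sema3a signal to microtubules, had 557.6 and 576.3 CPM with c-FOS and 237.9 and 242.6 CPM in control (1.24 ± 0.04, SE; edgeR adjusted p = 2.1e-12). The kinase gene Cdk5, which acts on CRMP proteins, rose by 0.67 ± 0.04 (SE), and its activator gene Cdk5r1 by 1.46 ± 0.21 (SE). Dpysl5, another CRMP gene, fell by 2.04 ± 0.35 (SE) from a low level, with 0.270 and 0.226 CPM with c-FOS and 1.13 and 0.990 CPM in control. It met the minimum count of 10 only through the control libraries, where it was high, so its call is no more than a description. Its counts were 7.5 and 7 with c-FOS and 33.5 and 31 in control.

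Of 8 proteases that cut semaphorins or are related to those that do, 7 were tested, of which 5 rose and 1 fell, while Adam17 did not pass, 85.7% called against 67.1% of all tested genes (33.8% higher, 33.3% lower). Their median log2 fold change was 0.38. Furin, the convertase that processes class 3 semaphorins, rose by 0.40 ± 0.04 (SE), with 384.7 and 401.7 CPM with c-FOS and 303.2 and 291.7 CPM in control. Mmp14, which can release Sema4d from the cell surface, rose by 0.72 ± 0.04 (SE), with 594.4 and 596.3 CPM with c-FOS and 364 and 361 CPM in control. Adamts4 rose most, by 3.33 ± 0.11 (SE; edgeR adjusted p = 5.65e-12), with 21.8 and 23.1 CPM with c-FOS and 2.32 and 2.12 CPM in control. Adam10 rose by 0.38 ± 0.05 (SE) and the convertase gene Pcsk6 fell by 0.41 ± 0.10 (SE).

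The counts of some of these genes have a further limit. In the GENCODE annotation of GRCm38, exons of Plxna1, Plxnb1, Sema4c and Plxna4 overlap a transcript on the opposite strand, and those of Nrp1 and Sema4a overlap a microRNA gene on the same strand. The library kit does not mark strand as far as its name shows, and the sources used here do not give the strand setting of the counting, so reads of such partners cannot be told apart.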

How the data were processed

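RNA-seq was measured in 4 libraries of ASZ001 cells, 2 with a c-FOS vector and 2 with an empty vector, grouped by the titles in the labels. TopHat alignment followed by HOMER is named in the series design text, and mm9 as the build and DESeq2 as another tool in the submitters' processing notes; the sources used here do not give versions, annotation or strand setting. Expected counts per gene symbol, unnormalized and in steps of 0.5, were deposited by the authors with a gene length. Of 24909 rows, 2 repeated a symbol, and the row with the higher total was kept.

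Counts were rounded to the nearest whole number, and upwards where 0.5 remained. Genes were filtered by group with filterByExpr at a minimum count of 10 and a minimum total of 15. Groups were compared in R 4.3.3 with edgeR 4.0.16, using TMM factors and the two-sided quasi-likelihood test without covariates, Benjamini-Hochberg adjusted over 12791 genes at 0.05. It was checked on simulated data. CPM use TMM-scaled library sizes, and levels between genes were compared per kilobase of the deposited length. SE were derived from the F statistic. Intervals are exact at 95%, and a count of 0 allows 3 counts. Replicates differed by more than sampling noise (chi-square per degree of freedom 1.93 with c-FOS and 4.82 in control). Alternatives were other scalings, filters, DESeq2 1.42.0, unrounded counts, a replicate block and leaving out each library.

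The members and lists were chosen with earlier results of these data known. All members may be named; of each other list, up to 5 with the largest changes that passed.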

Additional observations from a re-analysis of the deposited data

How the results depend on the processing

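Of 274 member values under 12 alternatives, 262 kept their direction and side of the threshold; the exceptions were Sema3b, Sema4b and Sema4c as given above, Sema6a, which passed with library totals (-0.18, edgeR adjusted p = 0.0304, with a highest value of 0.998 over its alternatives), and Sema6c, which lay between -0.30 and 0.0531 when 1 library was left out and turned positive without control replicate 1 (0.01) and without c-FOS replicate 1. The number of semaphorins lower with c-FOS, 3, was 6 with library totals and 5 under upper-quartile scaling, and 3 to 5 when 1 library was left out, the 5 being without control replicate 2. With library totals the plexin signalling list had 5 genes higher in place of 13, the processing proteases 2 lower in place of 1 (0 in DESeq2), and the log2 ratios of the sums were 0.14 for all semaphorins, -0.61 for all plexins and 0.58 for the neuropilins. Without division by length the ratio of all semaphorins was 0.48. With the minimum count of 50, 1 cytoskeletal effector was lower in place of 2, since Dpysl5 was not tested; Plxnb3 and Sema3b were not tested either, which left 4 receptors and 6 semaphorins higher in place of 5 and 7. Over all genes, library totals gave 3217 higher and 5878 lower, against 4324 and 4265 with TMM. The titles number the replicates alike in both groups without saying that a number marks a shared batch, and same-numbered libraries did not deviate together (r = -0.0841 across genes, which are not independent). With the replicate block 4246 genes were higher and 4218 lower, and the member counts were unchanged, with 7 semaphorins higher and 3 lower and 5 receptors higher and 4 lower. Other causes were not tested.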

Other observations

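Several class 3 semaphorin genes are neighbours in the mouse genome. In the RefSeq order of protein-coding genes on chromosome 5 (GRCm38.p6), Sema3d stands next to Sema3a, and Sema3e and Sema3c follow further along. Of these 4, Sema3a, Sema3e and Sema3c rose with c-FOS and Sema3d fell. Pclo, which encodes a presynaptic scaffold and stands next to Sema3e, fell by 1.39 ± 0.16 on the log2 scale (SE; edgeR adjusted p = 3.19e-06). Cacna2d1, a calcium channel subunit gene between Pclo and Sema3c, rose by 1.43 ± 0.06 (SE; edgeR adjusted p = 1.09e-10). The other 16 protein-coding genes of this stretch were not tested, among them Hgf, the ligand of Met. On chromosome 9, Sema3b and Sema3f are separated by Gnai2, Slc38a3 and Gnat1. Here Sema3b rose, Gnai2 rose by 0.36 ± 0.04 (SE; edgeR adjusted p = 8.04e-07) and Sema3f fell. These neighbouring genes thus did not share 1 direction in either stretch. Pclo, Cacna2d1, Hgf, Gnai2, Slc38a3 and Gnat1 are outside the naming rule and were chosen after the values of the semaphorins were seen.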
